A study of Arabidopsis thaliana with 2 samples.

Results

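The JAZ (JASMONATE ZIM-DOMAIN) genes of Arabidopsis thaliana encode the repressors that keep jasmonate responses switched off. The members were chosen by locus, from a list of 10 JAZ genes, as the non-control probes of both array layouts annotated to those loci. Of these 10, 8 had a probe, 1 each, among 21500 probes in all, namely JAZ1 (AT1G19180), JAZ2 (AT1G74950), JAZ3 (AT3G17860), JAZ5 (AT1G17380), JAZ6 (AT1G72450), JAZ9 (AT1G70700), JAZ10 (AT5G13220) and JAZ12 (AT5G20900). JAZ7 (AT2G34600) and JAZ8 (AT1G30135) were not measured. JAZ4, JAZ11 and JAZ13 are outside that list and are counted below with the other TIFY genes. Of these only JAZ4 had a probe, and counts of JAZ genes below are of the listed members. All 8 probes were well above background in both channels of both arrays, none was saturated, and all 8 were tested.

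Seedlings of wild-type Col-0 were grown in hydroponic culture at pH 5.5, with 12 h of light per day at 23 °C. At 10 days old their roots were given 10 µM AlCl3 at pH 5.0 for 6 h, or pH 5.0 without AlCl3 for the same time. The control roots thus also moved from pH 5.5 to pH 5.0. Both replicates are recorded with 2% MGRL solution and 200 µM CaCl2. Each array compared aluminium RNA with control RNA in 2 colours. There were 2 biological replicates, 1 array each, with aluminium in Cy3 on replicate 1 and in Cy5 on replicate 2. Dye, array layout, scanner software and culture all differ between the replicates and cannot be told apart.

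When jasmonoyl-isoleucine, the active hormone, accumulates, it joins JAZ proteins to the F-box protein COI1, and the JAZ proteins are ubiquitinated and destroyed. This frees transcription factors such as MYC2, which JAZ proteins hold down together with the adaptor NINJA and the corepressor TOPLESS. Most JAZ genes are themselves jasmonate-induced targets of MYC factors, so that a rise of JAZ transcripts is a common marker of jasmonate signalling. Jasmonate has been linked to inhibition of root growth by aluminium in Arabidopsis.

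No JAZ gene was called higher or lower in aluminium-treated roots. By limma with Benjamini-Hochberg adjustment over 19194 genes, 0 of 8 passed an adjusted p of 0.05 and 1 of 8, JAZ3, had an unadjusted p under 0.05. Over all genes tested, 14.7% were called (8.25% higher and 6.48% lower) and 30.7% had an unadjusted p under 0.05. A share of 0 among 8 genes is therefore close to the background and says little of the family as a group. The test compares aluminium with control within each array. In an unpaired fit, added after the data were seen, that takes the 4 channel signals as separate samples, limma called 0 of 19194 genes, and 1823 had an unadjusted p under 0.05. The 8 genes did differ in how their ratio behaved on the 2 arrays. JAZ3 was lower in aluminium RNA on both arrays, whereas the other 7 were higher in aluminium RNA on replicate 1 and lower on replicate 2. That pattern held for 7 of 8 JAZ genes and for 13.5% of all genes tested, whereas 0 of 8 were positive on both arrays (36.1% of all genes) and 1 of 8 negative on both (35.3%). With each array only centred on its median, without loess, it held for 4 of 8 JAZ genes and 20.7% of all genes.

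Signals below are intensities after loess within each array and scaling of average intensity between the arrays. They are in arbitrary units that compare 1 probe between samples and not different probes. Ratios are on the log2 scale, aluminium relative to control, and each mean is given ± the SD of both arrays (n = 2).

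JAZ3 came closest to a change. Its jai3-1 allele, which makes a truncated stable protein, gave one of the first jasmonate-insensitive JAZ mutants. Its signal was 452 on replicate 1 and 377 on replicate 2 in aluminium roots, against 567 and 532 in control roots. Both aluminium values lay below both control values, which was so for 1 of 8 JAZ genes and for 16.9% of all genes tested. Signals of the treatments did not overlap in either direction for 34.6% of all genes. The log2 ratios were -0.33 and -0.50, with a mean of -0.41 ± 0.121, which is 1.33-fold lower (limma adjusted p = 0.0557). It did not pass under any of 9 processing settings, in which the limma adjusted p ranged between 0.0516 and 0.627. In whole roots, fewer cells that express a gene and less RNA per cell cannot be told apart.

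**Figure D1:**
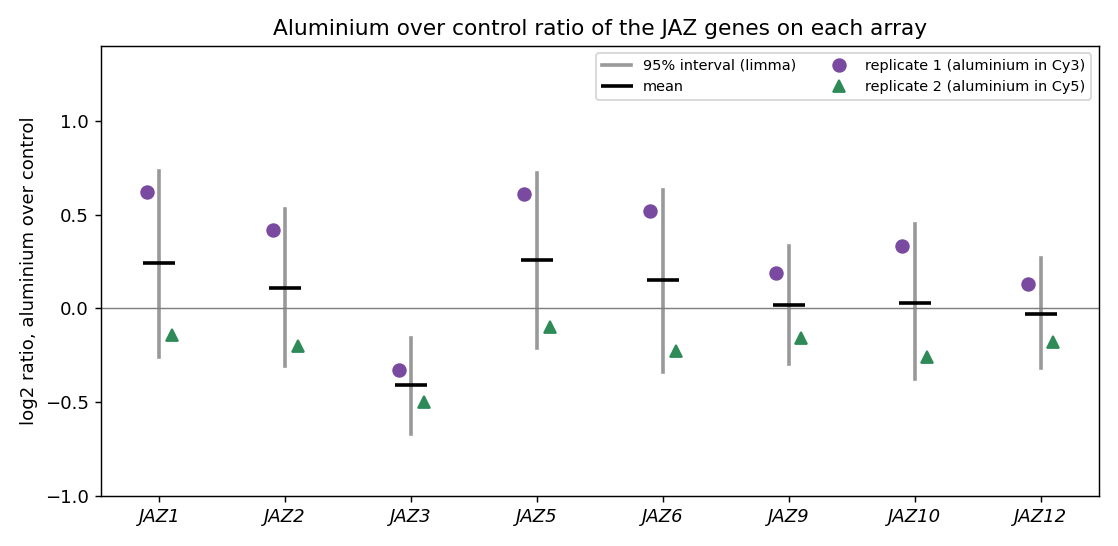
Log2 ratio of aluminium over control for the 8 measured members of the JAZ list: circles, replicate 1; triangles, replicate 2; black bar, mean; grey line, limma's 95% interval. For 7 genes the circle lies above 0 and the triangle below it, and for JAZ3 both lie below 0 (-0.33 and -0.50).

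JAZ1, a COI1-binding repressor of MYC2 and among the first JAZ proteins described, had a signal of 1401 and 2228 in aluminium roots of replicates 1 and 2, against 911 and 2459 in control roots. The groups overlapped, since the control roots held both the lowest and the highest value. The log2 ratio was 0.62 on replicate 1 and -0.14 on replicate 2, with a mean of 0.24 ± 0.539 (limma adjusted p = 0.476).

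JAZ2, whose protein also acts in guard cells during bacterial infection, showed the same order of samples, with 672 and 866 in aluminium roots against 502 and 994 in control roots. Its log2 ratios were 0.42 and -0.20, and the mean of 0.11 ± 0.437 was smaller than its spread (limma adjusted p = 0.721).

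JAZ5 and JAZ6 are a closely related pair. For JAZ5, aluminium roots gave 161 and 126, against 106 and 135 in control roots, with log2 ratios of 0.61 and -0.10 and a mean of 0.26 ± 0.499 (limma adjusted p = 0.414). JAZ5 was the dimmest member, its scanned signal being between 2.37 and 3.05 times the local background. Its mean moved with the processing, to 0.45 when the scanner's own ratios were used and 0.50 in the authors' series matrix, without passing. For JAZ6, aluminium roots gave 477 and 540, against 333 and 632 in control roots, with log2 ratios of 0.52 and -0.23 and a mean of 0.15 ± 0.527 (limma adjusted p = 0.675). In both genes the aluminium and control values overlapped.

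JAZ10, which is strongly jasmonate-induced and has splice forms that escape degradation, had a signal of 281 and 421 in aluminium roots of replicates 1 and 2, against 223 and 505 in control roots, again with the control roots lowest and highest. The newer layout lists transcript models 1 and 3 for this probe, so splice forms are not separated. Its log2 ratios of 0.33 and -0.26 gave a mean of 0.03 ± 0.422 (limma adjusted p = 0.917).

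JAZ9, which also binds the gibberellin-signalling DELLA protein RGA, had 287 and 562 in aluminium roots, against 251 and 630 in control roots. For this gene the arrays differed far more than the treatments. The log2 ratios were 0.19 and -0.16, with a mean of 0.02 ± 0.253 (limma adjusted p = 0.953).

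JAZ12, whose protein abundance depends on the ubiquitin ligase KEG, had 1353 and 1349 in aluminium roots against 1240 and 1524 in control roots. Its log2 ratios of 0.13 and -0.18 averaged -0.03 ± 0.214 (limma adjusted p = 0.914).

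Over the 8 genes the median log2 ratio was 0.38 on replicate 1 and -0.19 on replicate 2, while over all genes tested it was -0.00 and 0.01. The median SD was 0.429 among JAZ genes and 0.107 over all genes, and 5 of 8 JAZ genes had an SD above 0.3, a limit set after the values were seen, against 11.0% of all genes. In the main setting limma's 95% intervals of the mean ratio reached from -0.67 (JAZ3) to 0.73 (JAZ1), or 1.59-fold downward and 1.66-fold upward. Each interval is for 1 gene and borrows its spread from all genes, which varied less between the arrays than JAZ genes did. Larger changes are therefore not excluded. Without loess, JAZ5, JAZ6, JAZ9 and JAZ10 stayed positive on replicate 1 and negative on replicate 2. Their replicate 2 values were then -0.33, -0.08, -0.01 and -0.16. JAZ1 and JAZ2 were positive on both arrays, at 0.16 and 0.03 on replicate 2, and JAZ12 turned on both, to -0.07 on replicate 1 and 0.10 on replicate 2. The direction therefore depends on the scaling for JAZ1 and JAZ2 on replicate 2 and for JAZ12 on both arrays. For JAZ9 on replicate 2 the value without loess was next to 0, so its direction is not settled either.

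**Figure D2:**
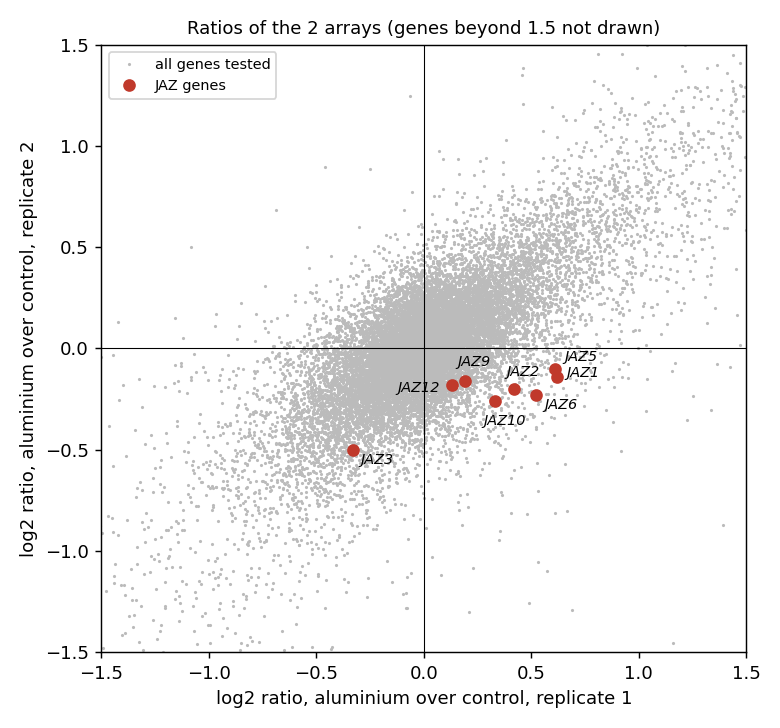
Log2 ratio of aluminium over control on replicate 1 (horizontal) and on replicate 2 (vertical) for all 19194 genes tested (grey) and the 8 JAZ genes (red). The 7 JAZ genes other than JAZ3 lie at the lower right, where ratios are positive on replicate 1 and negative on replicate 2, with 13.5% of all genes.

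In dye terms, after loess, the same 7 genes were brighter in Cy3 than in Cy5 on both arrays, as 13.5% of all genes were. With median centring in place of loess this held for 4 of 8 JAZ genes and 20.7% of all genes. With the dyes swapped between only 2 arrays, a dye effect on the JAZ probes and a real difference between the replicates cannot be told apart from the ratios alone.

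The signals of each treatment on its own combine these ratios with the average brightness of each array, so they are not independent of the ratios. The dye of each treatment also changes between the replicates, from Cy3 to Cy5 for aluminium and from Cy5 to Cy3 for control. This comparison between the replicates, and the limits used in it, were chosen after the values were seen. The JAZ signal was higher in replicate 2 than in replicate 1 for 5 of 8 genes in aluminium roots, against 49.9% of all genes tested. In control roots it was higher for 7 of 8, against 52%. The count in aluminium roots is near that share and says little of the family. JAZ1 was 2.70-fold higher in the control roots of replicate 2 than in those of replicate 1, JAZ9 2.51-fold and JAZ10 2.27-fold. JAZ2 followed at 1.98-fold and JAZ6 at 1.90-fold, while JAZ5, JAZ12 and JAZ3 differed by 1.27-fold or less. The JAZ5 value depends on the processing. Its log2 difference in control roots was 0.35, but 0.63 without scaling between the arrays and 0.91 with the scanner software's processed signals. In the main setting 0 of 8 JAZ genes in aluminium roots were over 2-fold higher in replicate 2, against 1.14% of all genes tested. In control roots 3 of 8 were, against 2.37%. A limit of 0.9 on the log2 scale, which was tried first, took in JAZ2 and JAZ6 as well and gave 5 of 8 in control roots, against 3.26% of all genes. The median log2 difference of replicate 2 minus replicate 1 was 0.27 in aluminium roots and 0.95 in control roots, where all genes had -0.00 and 0.02. It was larger in control than in aluminium roots for 8 of 8 JAZ genes, which restates the lower ratio on replicate 2, against 50.5% of all genes. The other contrasts between control and aluminium roots in this paragraph come from the same ratios and are no separate evidence.

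Averaging both channels of an array, which balances the dyes, left a median difference of 0.61 between the replicates for JAZ genes and 0.01 for all genes. By gene it was 1.15 for JAZ9, 1.05 for JAZ1, 0.88 for JAZ10, 0.68 for JAZ2 and 0.55 for JAZ6. JAZ12 had 0.15, JAZ5 -0.00 and JAZ3 -0.18. Without quantile scaling between the arrays JAZ5 had 0.29 and JAZ12 -0.02. With the scanner software's processed signals JAZ5 again had 0.29 and JAZ12 0.03. JAZ9 stayed highest, at 1.16 and 1.36. With 1 array per replicate there is no test of this difference, and layout, scanner software and culture all change with it. The medians in control roots were 0.89 without quantile scaling and 1.00 with the scanner software's processed signals, settings added after the data were seen.

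**Figure D3:**
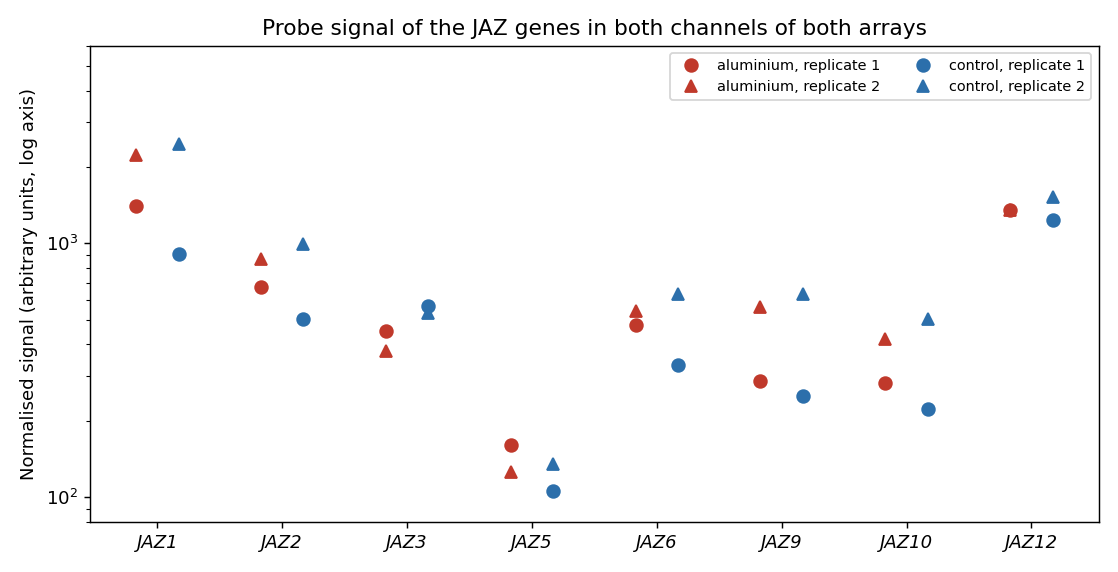
Normalised signal of each JAZ probe on a log axis in aluminium roots (red, left) and control roots (blue, right) of replicate 1 (circles) and replicate 2 (triangles). Heights are not comparable between genes. For JAZ1, JAZ2, JAZ6, JAZ9, JAZ10 and JAZ12 both control values lie outside both aluminium values, low on replicate 1 and high on replicate 2.

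A positive ratio on replicate 1 with a negative one on replicate 2 was not particular to jasmonate genes. It was found in 7 of 11 markers of green shoots, against 13.5% of all genes. Most of these 7 were dim. RBCS2B, RBCS3B, CAB3, LHCB3, LHCA1 and LHCA3 had scanned signals between 1.44 and 4.71 times the local background. The brighter RBCS1A had log2 ratios of only 0.08 and -0.02. Some jasmonate genes outside the family had the pattern too, and the jasmonate genes named in this paragraph were chosen after their values were seen. TAT3, a tyrosine aminotransferase gene that is a standard jasmonate marker, had a signal of 451 and 462 in aluminium roots of replicates 1 and 2, against 131 and 726 in control roots. The control roots differed 5.54-fold between replicates and the aluminium roots 1.02-fold. LOX3, a lipoxygenase gene of jasmonate synthesis, had 164 and 129 in aluminium roots, against 103 and 225 in control roots. The reductase gene OPR3 had 2236 and 2258 in aluminium roots, against 1485 and 2420 in control roots. OPCL1, encoding a ligase that activates OPR3's product, had 823 and 785 in aluminium roots, against 568 and 883 in control roots. In each of these the aluminium values lay between the control values of the 2 replicates.

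Of 18 synthesis genes tested, 5 were positive on replicate 1 and negative on replicate 2, namely LOX3, LOX6, OPR3, OPCL1 and the peroxisomal transporter gene PXA1. Over the 6 pathway lists together it was 19 of 89 genes, against 13.5% of all. Of the other TIFY genes, which share the domain after which the family is named, 0 of 6 tested did so. Their median between-replicate difference in control roots was -0.03. These 6 include JAZ4, itself a JAZ gene outside the list of members, with log2 ratios of -0.29 and -0.54.

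**Figure D4:**
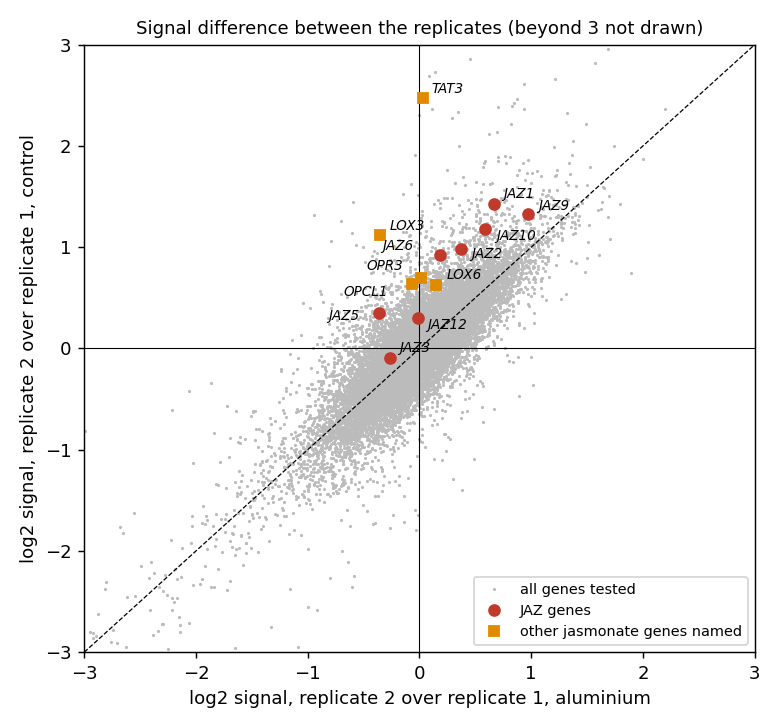
Log2 signal of replicate 2 over replicate 1 in aluminium roots (horizontal) and control roots (vertical) for all genes tested (grey), JAZ genes (red circles) and 5 other jasmonate genes (orange squares), with equality dashed. All 8 JAZ genes lie above the dashed line, and TAT3 stands highest of the named genes, at 2.47 in control roots and 0.03 in aluminium roots.

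The pathway genes of the lists were next counted by role, with p adjusted over all genes. Over all genes tested limma called 8.25% higher and 6.48% lower, and 30.7% had an unadjusted p under 0.05. Counts near these shares in such short lists say little of a role. Of 14 receptor and corepressor genes, 0 were called by limma and 3 had an unadjusted p under 0.05. The receptor gene COI1 (AT2G39940) had a log2 ratio of 0.08 ± 0.0822 and NINJA (AT4G28910) 0.01 ± 0.0297. Lowest in p were the TOPLESS-related gene TPR3 (0.41 ± 0.0799, limma adjusted p = 0.0511), the Mediator subunit gene MED25 (-0.27 ± 0.0548) and TPL itself (0.26 ± 0.0155).

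Among factors that JAZ proteins bind, 0 of 23 rose and 3 fell, against 8.25% and 6.48% of all genes. The median log2 ratio over the 23 genes was -0.16 for replicate 1 and -0.14 for replicate 2. EGL3, a bHLH factor of epidermal fate, had a signal of 110 and 83.2 in aluminium roots against 222 and 137 in control roots (log2 ratio -0.87 ± 0.208, limma adjusted p = 0.0127). It was dim, its scanned signal in aluminium roots being 2.3 and 1.69 times the local background. The size of its ratio depends on the processing, with -1.84 and -1.55 from the scanner software. RHD6, a bHLH factor that starts root hairs, had -0.67 ± 0.139, and the AP2 factor gene TOE1 had -0.58 ± 0.0118. MYC2 (AT1G32640), the main JAZ target, had a signal of 2509 and 2656 in aluminium roots against 3021 and 4233 in control roots. That is a log2 ratio of -0.47 ± 0.286, short of the threshold (limma adjusted p = 0.0753). Its paralog MYC3 had 0.35 ± 0.0726 (limma adjusted p = 0.0735) and MYC4 had 0.19 and -0.26 on the 2 arrays, so the 3 MYC genes did not share a direction.

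Of 18 synthesis genes 1 rose and 1 fell, against 8.25% and 6.48% of all genes. ACX1, an acyl-CoA oxidase of the peroxisomal steps, had 0.58 ± 0.15 (limma adjusted p = 0.0265), and the allene oxide cyclase gene AOC4 had -0.59 ± 0.0898 (limma adjusted p = 0.0212). Of 10 turnover genes tested 1 rose and 0 fell, against the same shares. The hormone-oxidising CYP94C1 had a signal of 410 and 374 in aluminium roots against 144 and 169 in control roots, or 2.51-fold (limma adjusted p = 0.00607). CYP94C1 differed by 1.17-fold between the control roots of the replicates. Among the called genes of the lists this difference ran from 1.15-fold for AOC4 to 3.17-fold for the output gene HEL. Among JAZ genes it ran from 1.07-fold for JAZ3 to 2.70-fold for JAZ1, so the 2 ranges overlap. This comparison was chosen after the values were seen.

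Among output genes of the pathway 3 of 18 were higher and 2 lower, against 8.25% and 6.48% of all genes. The basic chitinase gene CHIB had 2346 and 3769 in aluminium roots against 648 and 809 in control roots, or 4.11-fold (limma adjusted p = 0.00288). HEL, a hevein-like gene induced by ethylene and jasmonate together, had 1746 and 3362 in aluminium roots against 336 and 1064 in control roots, or 4.06-fold (limma adjusted p = 0.00598). The NAC factor gene ANAC055, a MYC2 target, rose by 0.75 ± 0.226. The AP2/ERF factor gene RAP2.6 had -1.03 ± 0.407 and the jacalin lectin gene JR1 -0.42 ± 0.0104 (limma adjusted p = 0.0181 and 0.0447). VSP2 (0.14 ± 0.00171) and PDF1.2a (0.08 ± 0.19), classical jasmonate markers chosen after their values were seen, did not pass.

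Of the 6 other TIFY genes tested 0 were called by limma and 2 had an unadjusted p under 0.05, against 14.7% and 30.7% of all genes. JAZ4, a close relative of JAZ3 and JAZ9 and outside the list of members, had 174 and 177 in aluminium roots against 212 and 258 in control roots, a log2 ratio of -0.42 ± 0.182 (limma adjusted p = 0.0674). TIFY8 had -0.29 ± 0.0235 and the GATA factor gene ZML2 0.23 ± 0.0608. Over the 6 lists 5 of 89 genes rose and 6 fell, against 8.25% and 6.48% of all genes. Without the pairing within arrays 0 of 89 were called by limma, as 0 of all genes were.

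**Figure D5:**
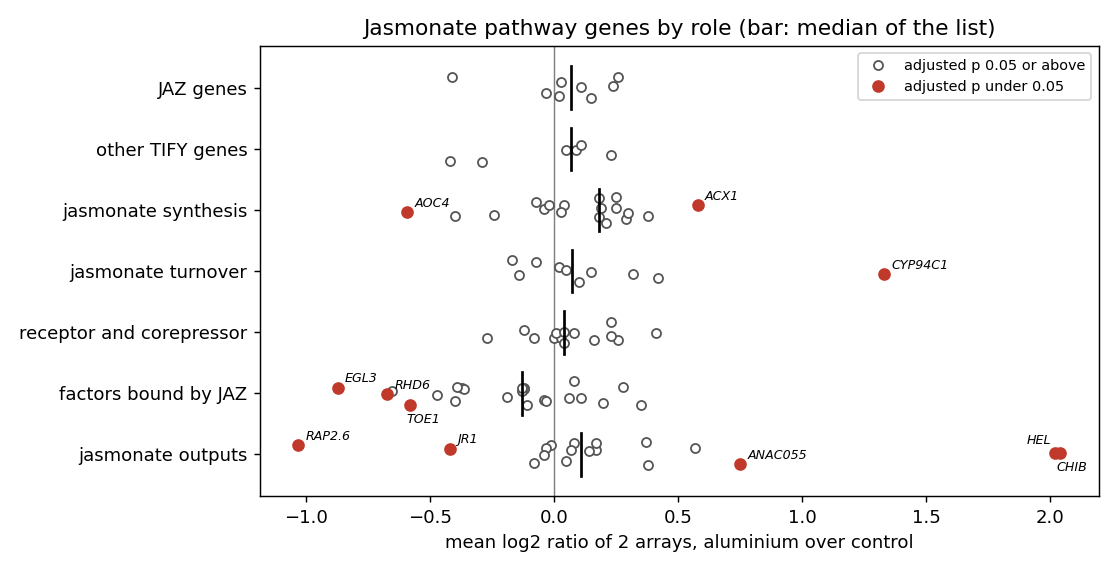
Mean log2 ratio of aluminium over control for each tested gene of the JAZ family and of 6 jasmonate pathway lists. Filled points passed an adjusted p of 0.05 and bars mark list medians. No JAZ point is filled, and CHIB and HEL lie farthest right, at 2.04 and 2.02.

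Median scanned signals of the 4 channels were 4.60 to 8.62 times their local background, and the number of arrays limits precision. Of 9 root markers 8 had a probe, and all 8 were above background in all channels. Of 11 green shoot markers 10 were above background in all channels. The summed signal of the shoot markers was 9317 and 6757 in aluminium roots of replicates 1 and 2, against 9608 and 6958 in control roots. Of the shoot markers 7 of 11, most of them dim, were positive on replicate 1 and negative on replicate 2, as 7 of 8 JAZ genes and 13.5% of all genes were. Summed root marker signal was 4534 and 3840 in aluminium roots, against 8401 and 7728 in control roots. By limma 5 of 8 root markers were called lower, against 6.48% of all genes. Both sums add signals of different probes, so the brightest weigh most and neither measures tissue content. The part of these markers in the JAZ values was not tested.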

How the data were processed

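The deposited scanner files hold spot intensity values per channel, made with Feature Extraction 8.1.1.1 (replicate 1) and 7.1.1 (replicate 2) per the file headers, whereas the submitters' processing notes name 9.5.1.1. The same deposited files hold a log10 ratio, Cy5 over Cy3, from that software, and the authors' series matrix holds log2 values, which followed that ratio turned to aluminium over control (r = 0.998 and 0.887). Their normalization and centring stay unknown, and their medians were -0.0103 and -0.0112. JAZ10 is not among the values used from that table, which covers 7 members.

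The mean signal of each spot was background-corrected by normexp with an offset of 50 and normalized by loess within arrays (control spots at weight 0) in limma 3.58.1 under R 4.3.3. The ratio of replicate 1 was turned. Channel signals were scaled between arrays by quantiles of average intensity (Aquantile). Outlier-marked probes (108), probes not well above background in any channel of some array (1151) and probes without a shared locus (1047) were left out. lmFit and eBayes gave a two-sided test of the mean ratio, on 1 residual and 4.06 prior degrees of freedom, with Benjamini-Hochberg adjustment. This test is paired within arrays. An unpaired fit of the 4 channel signals was added after the data were seen. With 2 arrays the spread is borrowed from all genes. The procedure was tested on simulated data with independent noise drawn from limma's own fitted spread. These data held no dye or array effect, so they cannot show how the test behaves where there is one.

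The members and lists were chosen with earlier results of these data known. From each of 6 lists, every called gene was named or, where none was, up to 3 with the smallest p, plus MYC2, MYC3, MYC4, COI1 and NINJA. No coordinates are printed, since no build is named in the files. Probes were not checked for cross-hybridization between related JAZ genes. The RefSeq table of locus names (TAIR10.1) matched 10 of 10 listed JAZ loci.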

Additional observations from a re-analysis of the deposited data

How the results depend on the processing

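No JAZ gene was called under any of 9 settings, 7 JAZ genes being analysed in the series matrix. The scanner software's ratios gave 288 called genes overall and 3 in the pathway lists, median centring 1475 and 7, against 2826 and 11 in the main setting. The series matrix values gave 0 and 0 by limma, where the smallest adjusted p was 0.0535 and 5073 genes were under 0.05 before adjustment. The mean log2 ratio of JAZ9 turned to -0.003 with the series matrix values and that of JAZ12 to 0.01 with median centring, both next to 0. The cause was not tested. Under the other settings that use both arrays the mean of no JAZ gene changed sign, and those of JAZ5 spanned 0.22 to 0.50. In the main setting the count of JAZ genes with a higher control signal in replicate 2 was 3 at a 2-fold limit and 5 at 0.9 on the log2 scale. Both limits were chosen after the values were seen. These counts depend on the signals used, though JAZ1, JAZ9 and JAZ10 stayed over 2-fold. With the scanner software's processed signals JAZ6 had 1.01 and JAZ5 0.91. Without quantile scaling JAZ2 had 0.89 and JAZ6 0.88. Leaving out 1 array leaves no residual degrees of freedom, so that the counts have no value there and each ratio is that of the other array. Without replicate 1 the sign turned for JAZ1 (-0.14), JAZ2 (-0.20), JAZ5 (-0.10), JAZ6 (-0.23), JAZ9 (-0.16) and JAZ10 (-0.26), and without replicate 2 for JAZ12 (0.13). JAZ3 kept its sign, at -0.50 and -0.33. The main test is paired, since each array holds an aluminium and a control sample. With no replicate block, the 4 channel signals as separate samples, limma called 0 of all genes, 0 JAZ genes and 0 pathway genes, and the smallest adjusted p of a JAZ gene was 0.627 (JAZ3). That fit leaves the difference between the arrays in the spread.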
